A study of Mus musculus with 6 samples.

Results

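Genes that restrain MAP kinase signalling were measured by RNA sequencing in bone marrow-derived macrophages from mice of 3 genotypes. The 9 genes described are the dual-specificity phosphatase genes Dusp1, Dusp2, Dusp4, Dusp5, Dusp6 and Dusp16, the Sprouty gene Spry2 and the Sprouty-related genes Spred1 and Spred3. They were taken by symbol from a table of read counts for 23337 genes, and all 9 passed the filter on low counts that left 12923 genes for testing. The knockouts were LXRdKO cells, which lack both liver X receptors (LXRα and LXRβ, the oxysterol-responsive nuclear receptors encoded by Nr1h3 and Nr1h2), and Ch25hKO cells, which lack Ch25h, the gene of the enzyme that makes 25-hydroxycholesterol. The reference was wild type (WT). There were 2 libraries per genotype, and the strain of every sample was given as C57BL/6. All cells were grown from bone marrow for 7 days in 10% M-CSF, the macrophage growth factor, and all were then stimulated for 8 h with 100 ng/ml LPS, the bacterial lipopolysaccharide that signals through Toll-like receptors. Every library therefore came from stimulated cells, and no value below gives the response to LPS itself. The labels do not say whether libraries of 1 genotype came from separate mice or cultures, and the spread behind each p-value may therefore be technical.

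MAP kinases (ERK, p38 and JNK) are switched on when a threonine and a neighbouring tyrosine are both phosphorylated. MAP kinase phosphatases (MKPs), a branch of the dual-specificity phosphatases, remove both phosphates, and many of their genes are themselves induced by the kinases they switch off, which makes a feedback loop. In macrophages, LPS activates all of these kinases, and Dusp1 is known as a brake on p38 and JNK that limits cytokine production. Sprouty and Spred proteins act further upstream and dampen the Ras to ERK pathway, the branch used by growth factor receptors such as the M-CSF receptor.

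Total counts ranged from 41650513 to 45872964 per library. Each knockout library was low in the genes its label names. Nr1h3 and Nr1h2 were at 5.66% and 2.6% of the WT level in LXRdKO, and Ch25h was at 1.62% of the WT level in Ch25hKO. In counts, Nr1h3 had 42 and 41 in LXRdKO, 806 and 859 in Ch25hKO, and 710 and 756 in WT, and Nr1h2 had 35 and 35, 1408 and 1507, and 1292 and 1401 in the same genotypes. Ch25h had 2509 and 2763 in LXRdKO, 42 and 57 in Ch25hKO, and 3120 and 3076 in WT. The 9 macrophage markers summed to between 17070 and 20620 CPM (counts scaled to the library's TMM-adjusted total) in every library, against 22.4 to 49.5 CPM for 10 stromal markers and 2.06 to 4.05 CPM for 8 B, T and NK cell markers. Unless stated otherwise, changes are log2 fold changes ± standard error from edgeR's quasi-likelihood fit with n = 2 libraries per genotype. Adjusted p-values are Benjamini-Hochberg values over all 12923 genes, and a change was called at an adjusted p under 0.05. Calls were common: 31.8% of all genes were called in LXRdKO against WT, 39.3% in Ch25hKO against WT and 37.9% in LXRdKO against Ch25hKO. Counts of called genes are read against these shares. The 2 WT libraries serve in both knockout comparisons, which are therefore not independent.

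Promoter letters are shown for the genes with a match to a known MAP kinase-responsive element and for the gene among the 9 that changed most in each knockout (Spred3 in LXRdKO, Spry2 in Ch25hKO). RefSeq promoter windows (GRCm38.p6) were found for 8 of the 9 genes and for 5 of the 8 other family members. In the 250 bases before the start site, 8 motifs were searched on both strands. The full cAMP response element TGACGTCA, a binding site of CREB and ATF factors, was found in Dusp1 and, outside the 9 genes, in Dusp8, and 1.55% of all 32851 windows hold it. The CArG box, the site of serum response factor, was found in Dusp5, which has adjacent matches, and 1.47% of all windows hold it. None of the family windows held the AP-1 site TGANTCA (6.75% of all windows), the ETS site CCGGAAGT (2.88%), the EGR site GCGTGGGCG (0.536%), the interferon-stimulated response element (2.98%), the sterol regulatory element TCACNCCA (3.67%) or the DR4 element of LXR (0.0152%). A match is a run of letters and says nothing of binding, and no match says only that these letters are not in the window. The lines give 100 bases, from 150 to 51 bases before the start, 5′ to 3′ on the gene's strand, with motif matches in capitals. The start is the 1 RefSeq start that the window table uses, and for Spred3 and Dusp8, and for the long GENCODE form of Dusp1, it lies inside the annotated gene, so other transcripts start further upstream. They lie at chr17:26508523-26508622 (minus strand), chr19:53528995-53529094 (plus), chr7:142095335-142095434 (minus), chr14:105896870-105896969 (minus) and chr7:29168698-29168797 (minus).
Dusp1: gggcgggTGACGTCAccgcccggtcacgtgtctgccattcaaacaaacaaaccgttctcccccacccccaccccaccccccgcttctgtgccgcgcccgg
Dusp5: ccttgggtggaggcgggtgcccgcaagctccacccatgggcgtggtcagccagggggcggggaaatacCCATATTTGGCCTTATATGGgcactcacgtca
Dusp8: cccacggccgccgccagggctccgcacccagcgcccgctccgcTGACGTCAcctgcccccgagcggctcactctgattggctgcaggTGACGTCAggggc
Spry2: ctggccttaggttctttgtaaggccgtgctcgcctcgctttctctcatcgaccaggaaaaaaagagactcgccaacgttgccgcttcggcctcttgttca
Spred3: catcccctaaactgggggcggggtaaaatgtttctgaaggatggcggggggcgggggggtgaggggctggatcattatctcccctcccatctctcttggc

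Per length of merged exon, Dusp1 was by far the most abundant of these transcripts. In LXRdKO it stood at 104 ± 12.9 CPM per kb, in Ch25hKO at 91.5 ± 3.06 and in WT at 148 ± 1.73 (SD, n = 2 each). In WT, Dusp2 (32.3 ± 1.35 CPM per kb), Spred1 (25.6 ± 0.963) and Dusp16 (22.9 ± 1.57) followed, then Dusp4 (6.21 ± 0.193) and Dusp6 (5.04 ± 0.0705). Spry2 (2.74 ± 0.804), Spred3 (1.86 ± 0.196) and Dusp5 (1.03 ± 0.0811) were the lowest of the 9. The SDs of Spred1 and Dusp16 nearly meet and those of Spry2 and Spred3 overlap, so the order within those pairs is not firm. Summed over the 10 MKP genes, the level was 164 and 186 CPM per kb in LXRdKO, 164 and 172 in Ch25hKO, and 230.5 and 224 in WT. All 4 knockout libraries lay below both WT libraries. Dusp1 is part of this sum and was itself lower in both knockouts, so the sum does not show a fall of the other MKP genes. Dusp1 made up 58.2% and 61.1% of this sum in LXRdKO, 54.3% and 54.5% in Ch25hKO, and 64.7% and 65.4% in WT. The 6 Sprouty and Spred genes with an annotated length summed to 34.1 and 36.1 CPM per kb in LXRdKO, 31.0 and 31.4 in Ch25hKO, and 35.9 and 33.4 in WT, so LXRdKO and WT overlapped. These lengths merge all annotated transcripts, and a gene with long rare isoforms is therefore scaled too low.

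**Figure D1:**
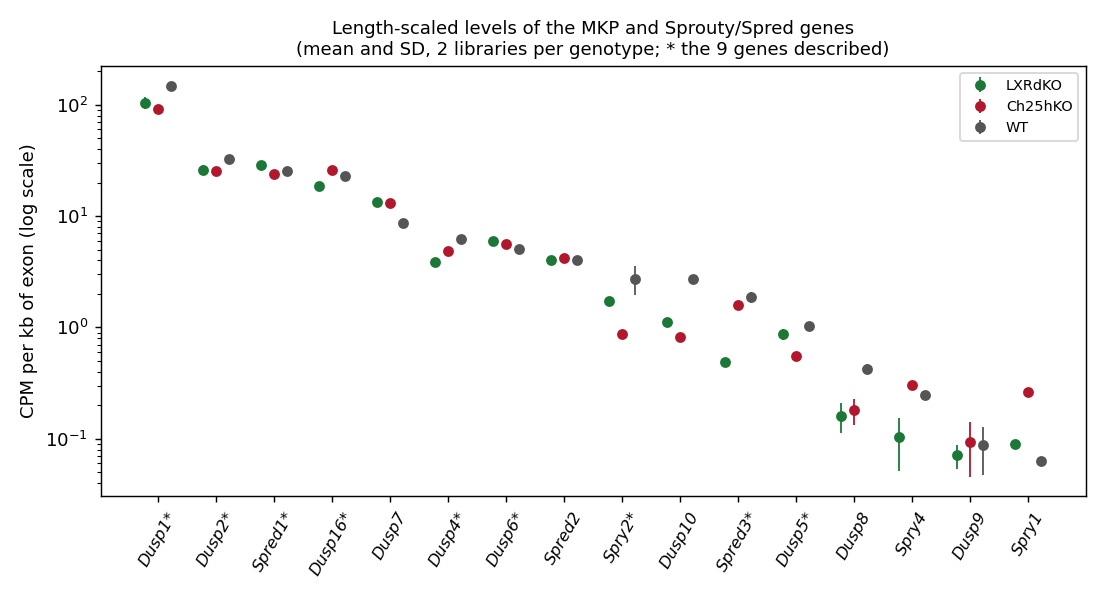
Mean CPM per kb of merged exon (log scale, error bars SD over 2 libraries) of the MKP, Sprouty and Spred genes in LXRdKO, Ch25hKO and WT, ordered by the WT level. Dusp1 is highest in every genotype, at 104, 91.5 and 148 CPM per kb. Spry3, for which no length was available, is not drawn.

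Of the 9 genes, 6 fell, 2 rose and 1 did not pass the test in LXRdKO against WT, where 15.5% of all genes fell and 16.4% rose. In Ch25hKO against WT, 5 fell, 1 rose and 3 did not pass, where 19.5% of all genes fell and 19.8% rose. Dusp1, Dusp2, Dusp4 and Spry2 fell in each knockout. The share of all genes that fell in both is not given here, and both comparisons use the same WT libraries. The median log2 fold change of the 9 genes was -0.30 in LXRdKO and -0.34 in Ch25hKO, beside medians of all tested genes near 0. The medians of the 8 other family genes were -0.45 in LXRdKO and 0.06 in Ch25hKO. The 9 genes were chosen with earlier results of these data known, so their counts and medians are no test of the family. In LXRdKO against Ch25hKO, 4 of the 9 were higher, 3 were lower and 2 did not pass, where 19.3% of all genes were higher and 18.6% lower. Groups that do not overlap were common too, at 63.6% of all genes in LXRdKO against WT (32.9% higher and 30.6% lower), 68.3% in Ch25hKO against WT (35.6% higher and 32.7% lower) and 71.2% in LXRdKO against Ch25hKO (34.7% higher and 36.6% lower). The counts of falling genes in both WT comparisons stayed within 1.5 times under every alternative tried. The counts of rising genes did not, since they rest on the small increases of Dusp6, Spred1 and Dusp16 described below.

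**Figure D2:**
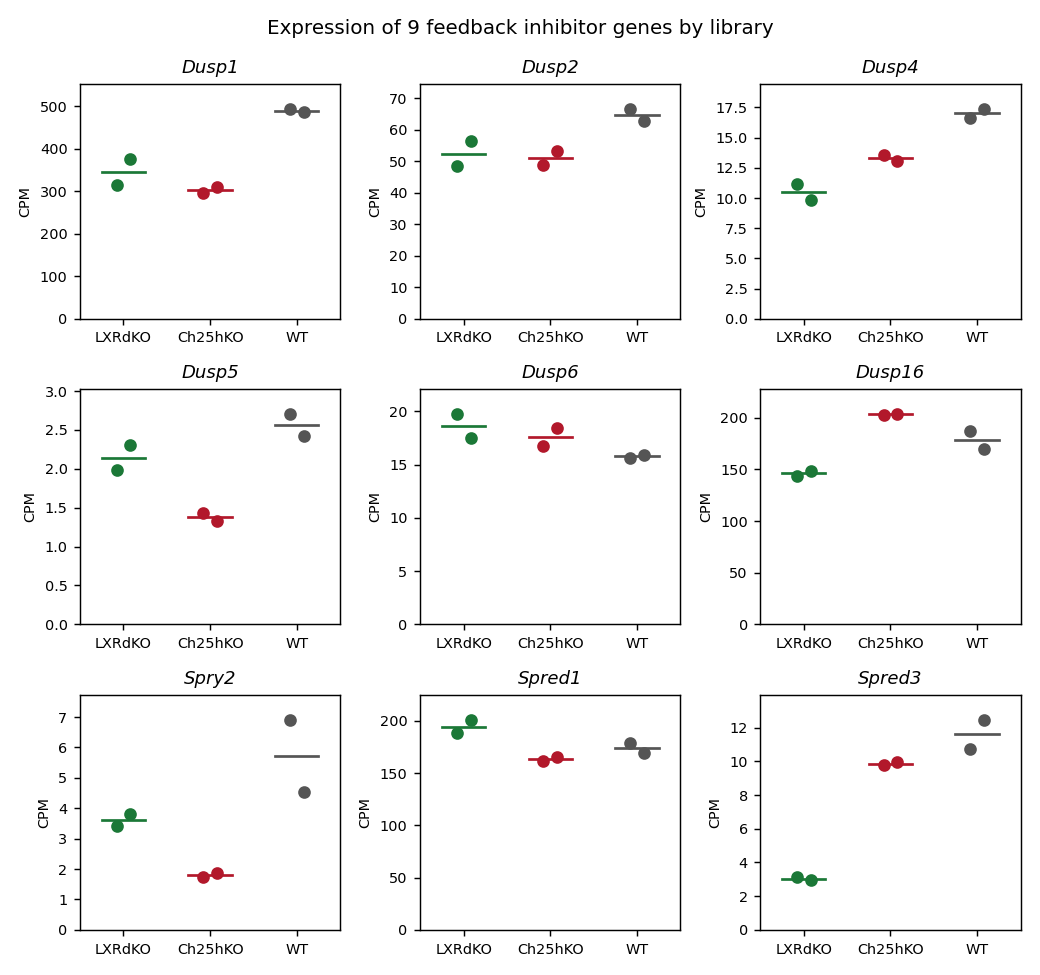
CPM of the 9 genes in each library of LXRdKO, Ch25hKO and WT, with 1 point per library and a line at the mean of 2 libraries, on axes that start at 0. Dusp1, Dusp2, Dusp4, Dusp5, Spry2 and Spred3 are lower in all 4 knockout libraries than in both WT libraries. The share of all genes lower in all 4 is not given here. Taken singly, 30.6% of all genes lay below WT without overlap in LXRdKO and 32.7% in Ch25hKO. Spred3 is lowest in LXRdKO, at 3.15 and 2.94 CPM.

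The inducible nuclear phosphatases are given first. Dusp1 (ENSMUSG00000024190.7, chromosome 17, 26505590 to 26562128 in GENCODE M21 on GRCm38; the RefSeq gene ends at 26508472) acts on p38 and JNK and, less, on ERK. It had 315 and 376 CPM in LXRdKO, 296 and 310 CPM in Ch25hKO, and 494 and 486 CPM in WT. Every knockout library was below both WT libraries, and the LXRdKO libraries, the more spread pair, lay above those of Ch25hKO. Dusp1 fell by 0.50 ± 0.07 in LXRdKO, to 70.5% of the WT level (edgeR adjusted p = 2.04e-05). In Ch25hKO it fell by 0.69 ± 0.07, to 61.8% of the WT level (edgeR adjusted p = 3.87e-07). Both calls held in all 14 alternatives. LXRdKO was higher than Ch25hKO by 0.19 ± 0.07 (edgeR adjusted p = 0.0347), a call lost without LXRdKO replicate 2 (0.06), Ch25hKO replicate 1 (0.16) or Ch25hKO replicate 2 (0.22). Adjusted p-values of that difference ranged from 0.0042 to 0.614 over the alternatives. The long GENCODE transcript of Dusp1 shares exon sequence with Ergic1 on the other strand. Ergic1 had 31.1 and 30.9 CPM in LXRdKO, 32.3 and 32.6 CPM in Ch25hKO, and 33.8 and 35.1 CPM in WT, and was called in none of the 3 comparisons.

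Dusp2 (chromosome 2, 127336159 to 127338376) encodes a nuclear phosphatase found mainly in immune cells. The gene lies 36.1 Mb from Nr1h3, 1 of the deleted genes, and the part of this distance in its changes was not tested. It had 48.6 and 56.3 CPM in LXRdKO, 48.7 and 53.3 CPM in Ch25hKO, and 66.6 and 62.8 CPM in WT. Both knockouts were below WT without overlap, and they overlapped each other. The fall was 0.30 ± 0.07 in LXRdKO (edgeR adjusted p = 0.0023) and 0.34 ± 0.07 in Ch25hKO (edgeR adjusted p = 0.000643). Without LXRdKO replicate 1 the LXRdKO value no longer passed (-0.20, edgeR adjusted p = 0.0887, with a range of 6.98e-06 to 0.0887 over the alternatives). LXRdKO and Ch25hKO differed by 0.04, with a 95% interval of -0.11 to 0.18 (edgeR adjusted p = 0.698).

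Dusp4 (chromosome 8, 34807297 to 34819894), another nuclear MKP, had 11.2 and 9.79 CPM in LXRdKO, 13.5 and 13.1 CPM in Ch25hKO, and 16.6 and 17.4 CPM in WT. The 3 genotypes did not overlap, with LXRdKO lowest. Dusp4 fell by 0.70 ± 0.08 in LXRdKO (edgeR adjusted p = 5.57e-06) and by 0.36 ± 0.08 in Ch25hKO (edgeR adjusted p = 0.00222). LXRdKO was lower than Ch25hKO (-0.34 ± 0.09, edgeR adjusted p = 0.00414), a call lost without LXRdKO replicate 2 (-0.25, edgeR adjusted p = 0.0913, with a range of 0.000536 to 0.0913 over the alternatives). The order of the knockouts was thus the reverse of that of Dusp1, where Ch25hKO was the lower.

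Dusp5 (chromosome 19, 53529109 to 53542431), a nuclear phosphatase selective for ERK, was scarce, with 58 to 120 counts per library. It had 1.98 and 2.31 CPM in LXRdKO, 1.43 and 1.33 CPM in Ch25hKO, and 2.70 and 2.42 CPM in WT. Ch25hKO was lowest, and both knockouts lay below WT without overlap. Dusp5 fell by 0.89 ± 0.18 in Ch25hKO, to 54% of the WT level (edgeR adjusted p = 0.000889). In LXRdKO its change was -0.25 ± 0.17, with a 95% interval of -0.62 to 0.11, and did not pass (edgeR adjusted p = 0.28). LXRdKO was higher than Ch25hKO by 0.64 ± 0.19 (edgeR adjusted p = 0.0124). DESeq2 did not call this difference, nor did fits leaving out Ch25hKO replicate 1, Ch25hKO replicate 2 or LXRdKO replicate 2 (0.69, 0.58 and 0.52), and its adjusted p ranged from 0.005 to 0.126 over 13 alternatives. Dusp5 lies 19.1 Mb from Ch25h on chromosome 19, and shares exon sequence with an annotated gene on the other strand.

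Dusp6 (chromosome 10, 99263231 to 99267489), a cytoplasmic ERK-selective enzyme and a widely used readout of ERK activity, had 19.7 and 17.5 CPM in LXRdKO, 16.8 and 18.4 CPM in Ch25hKO, and 15.6 and 15.9 CPM in WT. Both knockouts lay above WT, and they overlapped each other. The rise of 0.24 ± 0.08 in LXRdKO passed the test (edgeR adjusted p = 0.0297) but missed it in 6 of 14 alternatives, among them DESeq2 and the fits leaving out LXRdKO replicate 1 (0.15), Ch25hKO replicate 1 (0.23) or WT replicate 1 (0.22), and over all 14 the adjusted p ranged from 0.00995 to 0.309. In Ch25hKO the change was 0.16 ± 0.08, with a 95% interval of -0.01 to 0.32 (edgeR adjusted p = 0.132). LXRdKO and Ch25hKO differed by 0.08, with a 95% interval of -0.08 to 0.25 (edgeR adjusted p = 0.457).

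Dusp16 (chromosome 6, 134715468 to 134792625), which acts on JNK and p38, moved in opposite directions in the knockouts. It had 144 and 149 CPM in LXRdKO, 202.9 and 203 CPM in Ch25hKO, and 187 and 170 CPM in WT, and no genotypes overlapped. It fell by 0.29 ± 0.06 in LXRdKO (edgeR adjusted p = 0.000678), a call that held in all 14 alternatives. Ch25hKO was higher than WT by 0.19 ± 0.055 (edgeR adjusted p = 0.0117). That rise was lost without WT replicate 2 (0.10), Ch25hKO replicate 1 (0.18) or Ch25hKO replicate 2 (0.19), and its adjusted p ranged from 0.000104 to 0.122. The difference between the knockouts was -0.47 ± 0.06 in LXRdKO against Ch25hKO (edgeR adjusted p = 2.11e-06) and was called in all 14 alternatives.

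Spry2 (chromosome 14, 105891947 to 105896819), an inhibitor of receptor tyrosine kinase signalling to ERK, had the largest change of the 9 in Ch25hKO. It had 150 and 169 counts in LXRdKO, 76 and 81 in Ch25hKO, and 307 and 197 in WT, or 3.42 and 3.82 CPM, 1.75 and 1.86 CPM, and 6.91 and 4.54 CPM in the same order of genotypes. The groups did not overlap, and the WT libraries were the most spread. In Ch25hKO it fell by 1.66 ± 0.19, to 31.6% of the WT level (edgeR adjusted p = 2.25e-06), and the call held in all 13 alternatives that tested it (-1.95 to -1.33). In LXRdKO it fell by 0.66 ± 0.17 (edgeR adjusted p = 0.00608). The LXRdKO call was lost without WT replicate 1 (-0.32, edgeR adjusted p = 0.129) or LXRdKO replicate 1 (-0.58, edgeR adjusted p = 0.0798), with a range of 6.46e-07 to 0.129 over the alternatives. LXRdKO was higher than Ch25hKO (a log2 difference of 1.003 ± 0.20, edgeR adjusted p = 0.000622), and that call held in all 13.

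Spred3 (ENSMUSG00000037239.8, chromosome 7, 29158829 to 29170411), which encodes a Sprouty-related inhibitor of Ras to ERK signalling, had the largest change of the 9 in LXRdKO. It had 138 and 130 counts in LXRdKO, 424 and 433 in Ch25hKO, and 477 and 541 in WT. These correspond to 3.15 and 2.94 CPM in LXRdKO, 9.78 and 9.93 CPM in Ch25hKO, and 10.7 and 12.5 CPM in WT. LXRdKO stood far below both other genotypes. Spred3 fell by 1.93 ± 0.11 in LXRdKO, to 26.3% of the WT level (edgeR adjusted p = 7.42e-10, the gene ranked 45 by p among all tested). LXRdKO was also lower than Ch25hKO, by 3.24-fold (-1.70 ± 0.12, edgeR adjusted p = 2.11e-09). Both calls held in all 14 alternatives, with ranges of -2.03 to -1.83 and -1.74 to -1.65. In Ch25hKO against WT the change was -0.23 ± 0.10 and did not pass (edgeR adjusted p = 0.0623), but it passed with RLE scaling (-0.25), with the 5 CPM filter (-0.25) and without WT replicate 1 (-0.34).

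Spred3 lies 15.4 Mb from Nr1h2, 1 of the deleted genes, on chromosome 7. It shares exon sequence with Ggn on the other strand. Neither the counting mode nor the strand setting is given, so it is not known whether reads of the overlap were counted, or for which gene. Ggn had 47 and 33 counts in LXRdKO, 80 and 99 in Ch25hKO, and 69 and 76 in WT. It fell in LXRdKO (-0.86 ± 0.24, edgeR adjusted p = 0.00977) and was lower than in Ch25hKO (-1.18 ± 0.23, edgeR adjusted p = 0.000478). The part of the shared sequence and of the distance to Nr1h2 in the Spred3 result was not tested.

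Spred1 (chromosome 2, 117121374 to 117182279), which brings the Ras inactivator neurofibromin to the membrane, was the most abundant Spred gene. Spred1 lies 26.0 Mb from Nr1h3, 1 of the deleted genes, and the part of this distance in its changes was not tested. It had 188 and 201 CPM in LXRdKO, 161 and 165 CPM in Ch25hKO, and 179 and 169 CPM in WT. LXRdKO was highest, and no genotypes overlapped. LXRdKO was higher than Ch25hKO by 0.25 ± 0.05 (edgeR adjusted p = 0.000962), which held in all 14 alternatives. The rise against WT in LXRdKO was 0.16 ± 0.05 (edgeR adjusted p = 0.0289) and missed the threshold in 8 of 14 alternatives, among them DESeq2, the replicate block (adjusted p = 0.054) and the fits leaving out WT replicate 2 (0.11), LXRdKO replicate 1 (0.21), LXRdKO replicate 2 (0.11) or either Ch25hKO library (0.15 and 0.16), with adjusted p-values from 0.0036 to 0.284. In Ch25hKO the change was -0.09 ± 0.05 (edgeR adjusted p = 0.181), and it passed without WT replicate 2 (-0.15).

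**Figure D3:**
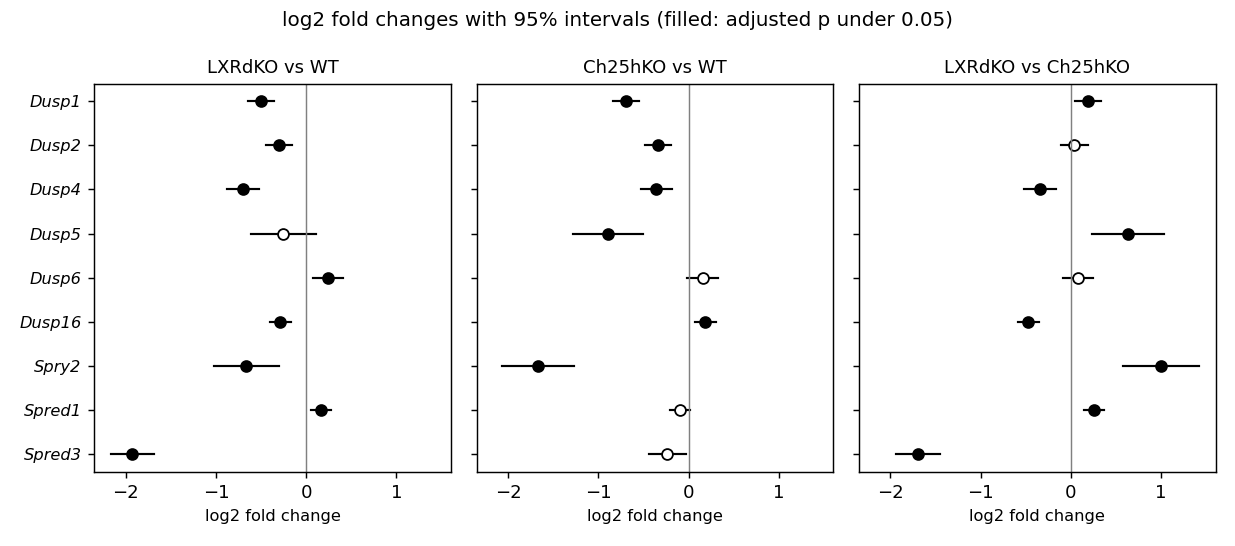
log2 fold changes of the 9 genes with 95% intervals in LXRdKO against WT, Ch25hKO against WT and LXRdKO against Ch25hKO, filled where the adjusted p was under 0.05. Spred3 stands apart in LXRdKO (-1.93) and Spry2 in Ch25hKO (-1.66), and in the direct comparison of the knockouts Spry2, Dusp5, Spred1 and Dusp1 lie above 0 while Spred3, Dusp16 and Dusp4 lie below it.

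The other 8 genes of the same families also moved in both directions. In LXRdKO against WT 4 fell and 1 rose, where 15.5% of all genes fell and 16.4% rose. In Ch25hKO against WT 3 fell and 2 rose, where 19.5% of all genes fell and 19.8% rose. In LXRdKO against Ch25hKO 2 were lower and 1, Dusp10, was higher, where 18.6% of all genes were lower and 19.3% higher. Without LXRdKO replicate 2, 2 fell in LXRdKO against WT. With the 5 CPM filter, which removes the scarcer genes, 1 fell in each knockout against WT, 1 rose in Ch25hKO and 0 were lower in LXRdKO than in Ch25hKO. The higher level of Dusp10 in LXRdKO than in Ch25hKO (0.44 ± 0.14, edgeR adjusted p = 0.0165) missed the threshold with DESeq2 and without any 1 of the 4 knockout libraries. Dusp10, which encodes a phosphatase of p38 and JNK, had 149 and 150 counts in LXRdKO, 109 and 109 in Ch25hKO, and 376 and 353 in WT. It fell to 40.9% of the WT level in LXRdKO (-1.29 ± 0.12, edgeR adjusted p = 1.69e-07) and to 30.2% in Ch25hKO (-1.73 ± 0.12, edgeR adjusted p = 6.37e-09), the largest fall of any MKP gene in Ch25hKO. Dusp8, another phosphatase of JNK and p38 and the carrier of the paired cAMP response elements printed above, had 27 and 42 counts in LXRdKO, 31 and 45 in Ch25hKO, and 99 and 84 in WT. It fell 2.65-fold in LXRdKO (edgeR adjusted p = 0.000339) and 2.38-fold in Ch25hKO (edgeR adjusted p = 0.000649). Dusp7, a cytoplasmic phosphatase of ERK, had 44.3 and 45.9 CPM in LXRdKO, 43.0 and 44.4 CPM in Ch25hKO, and 28.8 and 29.7 CPM in WT. It rose 1.54-fold in LXRdKO (edgeR adjusted p = 2.24e-07) and 1.49-fold in Ch25hKO (edgeR adjusted p = 3.91e-07). Dusp9 had 7 to 15 counts per library and was called in no comparison.

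Among the Sprouty genes, Spry1 was rare, with 11 and 12 counts in LXRdKO, 32 and 34 in Ch25hKO, and 8 and 8 in WT. It rose 4.12-fold in Ch25hKO (2.04 ± 0.39, edgeR adjusted p = 0.000455), and in LXRdKO its change was 0.51 ± 0.48 (edgeR adjusted p = 0.446). LXRdKO was lower than Ch25hKO (-1.53 ± 0.36, edgeR adjusted p = 0.00265). Spry3 had 124 and 93 counts in LXRdKO, 60 and 92 in Ch25hKO, and 141 and 185 in WT, and fell by 0.59 ± 0.20 in LXRdKO and by 1.09 ± 0.21 in Ch25hKO (edgeR adjusted p = 0.0321 and 0.000593). The LXRdKO call was lost with DESeq2, without WT replicate 2 (-0.38) and without LXRdKO replicate 2 (-0.39). Spry4 had 29 and 14 counts in LXRdKO, 59 and 67 in Ch25hKO, and 51 and 52 in WT. It fell in LXRdKO (-1.26 ± 0.31, edgeR adjusted p = 0.00427), by 1.88 without LXRdKO replicate 1 and by 0.82 without LXRdKO replicate 2, where the call was lost (edgeR adjusted p = 0.0927, with a range of 0.000226 to 0.0927). It was also lower in LXRdKO than in Ch25hKO (-1.56 ± 0.30, edgeR adjusted p = 0.000384), by 2.18 without LXRdKO replicate 1. Spred2 had 18.3 and 18.6 CPM in LXRdKO, 20.0 and 18.6 CPM in Ch25hKO, and 19.3 and 18.2 CPM in WT, and was called in no comparison.

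The kinases these proteins restrain were also measured. Among all tested genes, 16.4% rose and 15.5% fell in LXRdKO, and 19.8% rose and 19.5% fell in Ch25hKO. In LXRdKO against Ch25hKO, 19.3% were higher and 18.6% lower. The list counts below stand beside these shares. Of 20 genes from the M-CSF receptor through Ras and RAF to ERK, 4 rose and 3 fell in LXRdKO, with a median of 0.04. In Ch25hKO, 3 of them rose and 2 fell, with a median of 0.07. The Ch25hKO counts were 1 and 1 without Ch25hKO replicate 1, and 4 fell without WT replicate 2. Braf and the M-CSF receptor gene Csf1r were higher in LXRdKO (0.36 ± 0.06 and 0.30 ± 0.05). In Ch25hKO, the Ras activator gene Sos1 was lower (-0.42 ± 0.06), and the adaptor gene Gab1 and the kinase gene Araf were higher (0.31 ± 0.05 and 0.28 ± 0.06), the last a call lost without Ch25hKO replicate 1. In LXRdKO against Ch25hKO, 4 of the 20 were higher, a count of 0 without Ch25hKO replicate 1, 1 without either LXRdKO library and 8 without either WT library, and 4 were lower, among them Gab1 and the phosphatase gene Ptpn11 (-0.34 and -0.31). Of 16 tested genes of the p38 and JNK cascades, 4 rose and 2 fell in LXRdKO, and 4 rose and 3 fell in Ch25hKO. No alternative gave 4 rising genes in LXRdKO, and 1 of those calls was close to the threshold (edgeR adjusted p = 0.0494). The count that fell in LXRdKO also moved without LXRdKO replicate 2. Mapk14, the gene of p38α, had a mean of 84.8 CPM in LXRdKO, 64.9 CPM in Ch25hKO and 50.5 CPM in WT. It rose by 0.75 ± 0.05 in LXRdKO (edgeR adjusted p = 1.03e-08) and by 0.36 ± 0.05 in Ch25hKO (edgeR adjusted p = 4e-05), and LXRdKO was the higher of the knockouts (0.39 ± 0.05, edgeR adjusted p = 1.39e-05). Map2k4, an activator of JNK and p38, fell in Ch25hKO (-0.53 ± 0.05), and Mapk11 fell in LXRdKO (-0.64 ± 0.15).

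Of 14 other brakes on Ras and ERK, 5 rose and 3 fell in LXRdKO, and 5 rose and 2 fell in Ch25hKO. The Ch25hKO counts depended on single libraries: 2 rose and 0 fell without Ch25hKO replicate 1, and 1 rose without Ch25hKO replicate 2. In LXRdKO, the feedback inhibitor gene Errfi1 fell (-0.80 ± 0.10), and the ubiquitin ligase gene Cblb and the adaptor gene Dok2 rose (0.38 ± 0.05 and 0.53 ± 0.07). In Ch25hKO, Lztr1, which promotes Ras degradation, rose (0.44 ± 0.07). Of 18 tested ERK-responsive genes, 9 fell and 4 rose in LXRdKO, 6 fell and 4 rose in Ch25hKO, and 8 were higher and 6 lower in LXRdKO than in Ch25hKO. The cyclin gene Ccnd1 fell in Ch25hKO (-1.85 ± 0.08), with means of 143.5 CPM in LXRdKO, 35.9 CPM in Ch25hKO and 129.5 CPM in WT. Ier3, Fosl2 and Phlda1, the 3 of this list with the lowest p in LXRdKO, fell there (-0.68 ± 0.05, -0.55 ± 0.05 and -0.92 ± 0.09). The 4 that rose in LXRdKO were Etv5, Egr2, Egr1 and Epha4 (0.42, 0.61, 0.51 and 0.35). In Ch25hKO, Ier3 and Phlda1 rose (0.36 ± 0.05 and 0.34 ± 0.08) and Fosl2 was not called (0.09 ± 0.05). The receptor gene Epha4 rose in Ch25hKO (1.23 ± 0.10). Of 11 tested cytokine and enzyme genes known to depend on p38, ERK or Dusp1 in macrophages, 9 fell and 1 rose in LXRdKO, with a median of -1.03. The 1 rise, of Il1b, was close to the threshold (0.16 ± 0.06, edgeR adjusted p = 0.0486). It was lost with RLE scaling, the 5 CPM filter, a fit of only the genotypes compared and the replicate block. Most fits leaving out 1 library lost it too. In Ch25hKO 6 of the 11 fell and 3 rose, with a median of -0.25. Cxcl1, a neutrophil chemokine gene, had the lowest p of this list in LXRdKO (-2.85 ± 0.07), followed by Il12b (-1.88), a cytokine subunit gene, and Il10 (-1.31), the gene of an anti-inflammatory cytokine. Ccl2 (-1.21), a monocyte chemokine gene, and Il10 (-0.94) fell in Ch25hKO. Zfp36, which encodes a protein that destabilises cytokine mRNA, fell both in LXRdKO (-0.88 ± 0.06) and in Ch25hKO (-0.67 ± 0.06).

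**Figure D4:**
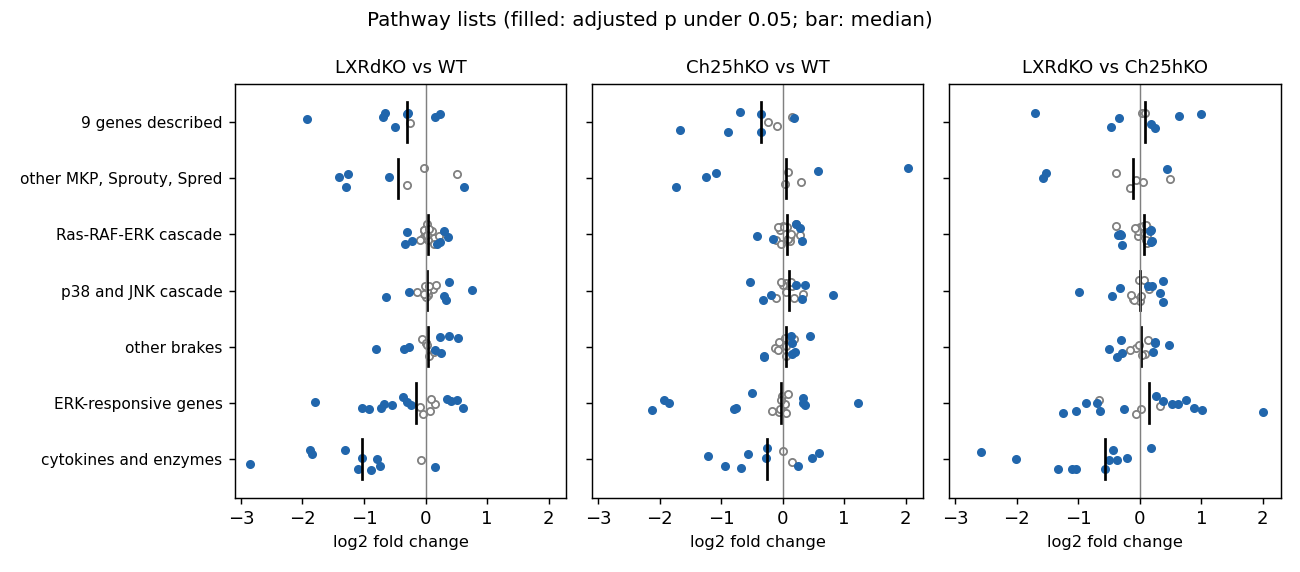
log2 fold changes of the tested genes of each list in LXRdKO against WT, Ch25hKO against WT and LXRdKO against Ch25hKO, with 1 point per gene, filled where the adjusted p was under 0.05, and a bar at the list's median. In LXRdKO against WT the medians of the 2 kinase cascades are 0.04 and 0.03, with Mapk14 at 0.75, and the median of the cytokine and enzyme genes is -1.03.

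For the 3 of the 9 genes with the lowest p over the 3 genotypes, the genes of most like pattern were found from log2 CPM over the 6 libraries, as a description. These libraries share their genotypes, so high correlations are easily reached. Spred3 was most like Cxcl1 (r = 0.992), a chemokine gene, Top2a (0.992), a gene of dividing cells, and Plac8 (0.987), out of 143 candidates. Dusp1 was most like Il27 (r = 0.995), a cytokine subunit gene, Phlpp1 (0.994), a phosphatase gene, and Hfe (0.992), out of 1953 candidates. Spry2 was most like Rgs2 (r = 0.992), an inhibitor of G protein signalling, Rilpl1 (0.991) and Arl4c (0.986), out of 175 candidates.

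Markers of other cells also differed between the genotypes. In bulk RNA, fewer cells of a type cannot be told apart from less RNA per cell. The counts below stand beside the shares of all tested genes, of which 16.4% rose and 15.5% fell in LXRdKO. In Ch25hKO 19.8% rose and 19.5% fell. Stromal markers summed to 27.6 and 24.1 CPM in LXRdKO, 49.45 and 46.03 CPM in Ch25hKO, and 22.9 and 22.4 CPM in WT, and 7 of 8 tested rose in Ch25hKO (3 with the 5 CPM filter), in the libraries where Spry1 was high. Dendritic cell markers summed to 23.7 and 26.2 CPM in LXRdKO, 14.0 and 14.7 CPM in Ch25hKO, and 29.9 and 29.5 CPM in WT. Of 7 tested, 4 fell in Ch25hKO (2 with the 5 CPM filter), where Spry2 and Dusp5 were lowest. Among these 4, Ccr7 was lower still in LXRdKO (means of 4.33 CPM in LXRdKO, 5.69 in Ch25hKO and 9.83 in WT). The other 3 were higher in LXRdKO than in Ch25hKO. Neutrophil markers summed to 19 and 19.6 CPM in LXRdKO, 51.9 and 54.5 CPM in Ch25hKO, and 39.8 and 38.8 CPM in WT. Of 4 tested, 3 fell in LXRdKO (1 with DESeq2 or the 5 CPM filter), where Spred3 was low. In Ch25hKO the neutrophil sum lay above WT, while Spred3 lay below WT in both libraries (not called). S100a8, which activated macrophages also express, held most of that sum (means of 16.47 CPM in LXRdKO, 49.25 in Ch25hKO and 35.52 in WT). Endothelial markers summed to 104 and 108 CPM in LXRdKO, 58.0 and 60.3 CPM in Ch25hKO, and 87.8 and 81.3 CPM in WT, most of it Kdr (means of 95.68 CPM in LXRdKO, 50.6 in Ch25hKO and 69.81 in WT). Of 3 tested, Kdr rose and Pecam1 fell in LXRdKO (0.45 and -0.70), and both fell in Ch25hKO (-0.46 and -1.04). Of the 9 macrophage markers, 7 rose in LXRdKO (4 without either LXRdKO library), while 1 rose and 3 fell in Ch25hKO, the 1 being lost without Ch25hKO replicate 1. None of the markers in the table was at 0 in every library. The part of these cells in the results above was not tested.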

How the data were processed

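Raw read counts were deposited by the authors in 1 table, with gene symbols in rows and the 6 libraries in columns. Per the submitters' processing notes, CASAVA, STAR 2.3.0, HTSeq and the mm10 genome were used, and the series' design text gives STAR as the aligner. Which gene annotation, counting mode and strand setting were used is not given. Per the labels' protocols, cDNA was amplified with an Ovation kit before library construction, so reads are not independent molecules.

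Genes were filtered with filterByExpr of edgeR 4.0.16 in R 4.3.3, which kept 12923 of 23337 genes and 99.98% of all counts. After TMM scaling, 1 robust quasi-likelihood model, with a term for each genotype, was fitted to the 6 libraries together, leaving 3 residual degrees of freedom. The common biological coefficient of variation was 4.41%. The procedure was also run on simulated counts, with changes in Ch25hKO alone and each gene given the same spread in every genotype. That run cannot show how the test behaves under the unequal spread given below. Standard errors are the fold change divided by the square root of F. Alternatives were RLE and upper-quartile scaling, DESeq2 1.42.0, limma-voom (limma 3.58.1), no filter, a 5 CPM filter (reached in at least 2 libraries), fitting the compared genotypes alone, a replicate block and each library left out, 14 in all. A genotype left with 1 library was assumed to vary like the others. The genotypes did not vary alike: chi-square per degree of freedom between replicates was 4.24 in LXRdKO, 5.1 in Ch25hKO and 12.3 in WT. The model pools the spread of all genotypes, so p-values of comparisons against WT may be too small.

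The 9 genes and the lists were chosen with earlier results of these data known. All 9 genes, the other family members and, of each pathway list, genes among the 3 with the lowest p in a comparison were to be named. Genes of like pattern had at least 5 CPM on average, a range within 1.5 times that of the gene and no predicted model. Positions and exon lengths are from GENCODE M21 (GRCm38, the assembly of mm10). Ly6g was not matched in the table. A result that the naming rule selects is not reported here.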

Additional observations from a re-analysis of the deposited data

How the results depend on the processing

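Of 372 values of the 9 genes under alternatives (a gene in a comparison under a setting), 337 kept their direction and their side of the threshold, 28 lost a call, 4 gained one and 3 changed sign. The sign changes were of uncalled values in LXRdKO against Ch25hKO: over fits leaving out 1 library, Dusp2 ranged from -0.0713 to 0.142 (-0.0249 without Ch25hKO replicate 1) and Dusp6 from -0.00787 (without LXRdKO replicate 1) to 0.165. For the other 8 family genes, 297 of 320 values kept both, and 9 uncalled values changed sign. Leaving out 1 library, the ranges were -0.504 to 0.131 (0.12 without LXRdKO replicate 1) for Dusp8 in LXRdKO against Ch25hKO, -0.713 to 0.256 for Dusp9 in LXRdKO against WT, -0.557 to 0.641 (-0.33 without WT replicate 2) for Dusp9 in Ch25hKO against WT, -0.825 to 0.253 for Dusp9 in LXRdKO against Ch25hKO, -0.0766 to 0.0185 for Spred2 in LXRdKO against WT, and -0.0188 to 0.0902 (-0.0151 without WT replicate 2) for Spred2 in Ch25hKO against WT. The cause was not tested.

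The number of the 9 genes called higher in LXRdKO against WT was 2, and came to 0 with DESeq2, 1 with the 5 CPM filter, 0 in a fit of only the genotypes compared, 1 with the replicate block and 0 to 1 without 1 library. In Ch25hKO against WT it was 1, and 0 to 1 without 1 library. In LXRdKO against Ch25hKO it was 4, and came to 2 with the 5 CPM filter, which leaves out Dusp5 and Spry2, and to 2 to 4 without 1 library. Without 1 library, genes called among all tested ranged from 3259 to 5228 in Ch25hKO against WT, from 2490 to 4300 in LXRdKO against WT and from 3216 to 5744 in LXRdKO against Ch25hKO. No large effect shared by replicate number was seen. Differences between replicates 1 and 2 correlated across genes at 0.0263 (LXRdKO and Ch25hKO), -0.0143 (LXRdKO and WT) and -0.0855 (Ch25hKO and WT). These values cannot decide whether the libraries were handled in pairs, because pairs need not leave such an effect. With 2 libraries per genotype and low counts, changes of Spry1, Spry4, Dusp8 and Dusp9 are the least precise.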
